A study of Mus musculus with 4 samples.

Results

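The neural ectoderm genes described here are 9 genes of the early neural plate and of young neurons, *Sox1*, *Pax6*, *Nes*, *Neurog2*, *Tubb3*, *Six3*, *Hes5*, *Gbx2* and *Pax3*. They were chosen by name, and each of them had 1 row among the 22718 genes of the expression tables. The study sequenced polyadenylated RNA of mouse embryonic stem (ES) cells that carried or lacked *Prep1* (gene symbol *Pknox1*), a homeodomain transcription factor of the TALE class. There was 1 library of wild type (WT) ES cells and 1 library labelled *Prep1* -/-, both of the C57BL/6 background. Both lines were derived in the laboratory of the study, the *Prep1* -/- library comes from its KO2 line, and the cells were kept undifferentiated with LIF on gelatin. Prep1 binding was mapped by ChIP-seq in wild type ES cells, in the R1 line according to the protocol, with an antibody that can also weakly recognise Prep2. Since each genotype had a single library, the differences lack replicates and no test was run, and genotype cannot be told apart from any other difference between the lines.

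In the embryo, ectoderm that is shielded from BMP and Nodal signals becomes neural plate, and ES cells can take the same route once they leave pluripotency. The neural plate is marked by SoxB1 factors and nestin, and homeodomain factors such as Pax6, Six3 and Gbx2 divide it into regions. Notch signalling through Hes factors keeps progenitors dividing, while proneural factors such as Neurog2 drive them to become neurons, which then assemble microtubules from the neuronal beta-tubulin Tubb3. Prep1 binds DNA together with Pbx partners, often at a 10 base element, and *Pax6* is known as a gene it controls in the developing eye.

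The libraries held 29596294 reads (WT) and 25717811 reads (*Prep1* -/-) assigned to genes. These sums exceed the reads per sample that the study's methods state, and the intervals below take the counts in the files as independent reads, so they are too narrow if fewer were sequenced. *Pknox1* itself kept part of its reads, with 505 in the WT library and 332 in the one labelled *Prep1* -/-. Its KO/WT ratio of RPKM was thus 0.736 (95% interval 0.638 to 0.846). This ratio concerns RNA only, and in the study's immunoblots the Prep1 protein was lost in its *Prep1* null ES lines. All 10 markers of ES cells in a fixed list had RPKM above 1 in both libraries; *Pou5f1* had an RPKM of 323 and 360, *Nanog* 66.4 and 91.0 and *Sox2* 101 and 134 in WT and *Prep1* -/-. Genes of chromosome 8, which carries *Sox1* and *Tubb3*, had a median KO/WT ratio of 0.779 (702 genes), against 0.955 for the 13218 genes of all chromosomes with RPKM above 1 in both libraries. Genes of the Y chromosome had 0 reads in the WT library and 991 in the other. The part of these differences between the lines in the values below was not tested.

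Levels are given as RPKM, the reads of a gene divided by its length and by the library size. The lengths used are not given. With the summed reads as library size, the values of *Nes* imply a length beyond its genomic span of 9374 bp. Comparisons of levels between genes are therefore approximate, while the KO/WT ratio of a gene does not depend on its length. In wild type ES cells the neural ectoderm genes fell into a group above 10 RPKM, a group near 1 RPKM and a group well below 1 RPKM. *Tubb3* (ENSMUSG00000062380, chr8:125935324-125945915, mm9, plus strand), the beta-tubulin of neurons, had the highest level, 37.9 RPKM from 1661 reads in WT and 36.6 RPKM from 1433 reads in *Prep1* -/-. *Gbx2* (ENSMUSG00000034486, chr1:91824537-91829865, minus strand), which in the neural plate sets the boundary between midbrain and hindbrain and is also made by naive ES cells, had 32.6 RPKM (2115 reads) and 34.1 RPKM (1978 reads). *Nes* (ENSMUSG00000004891, chr3:87775000-87784373, plus strand), the intermediate filament nestin of neural progenitors and of several non-neural progenitors, had 22.2 RPKM (8200 reads) and 15.2 RPKM (5018 reads). These 3 genes thus had RPKM above 10 in both libraries.

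*Sox1* (ENSMUSG00000079994), the SoxB1 factor with the most restricted expression in neural plate, stood at 1.30 RPKM from 48 reads in WT and 1.64 RPKM from 54 reads in *Prep1* -/-. *Pax6* (ENSMUSG00000027168, chr2:105509053-105543317, plus strand), a regulator of eye and forebrain, stood at 0.939 RPKM from 358 reads and 1.72 RPKM from 588 reads. The other 4 genes were below 1 RPKM in both libraries. *Pax3* (ENSMUSG00000004872, chr1:78097842-78193709, minus strand), a factor of the dorsal neural tube and neural crest, had 51 reads (0.306 RPKM) in WT and 35 reads (0.237 RPKM) in *Prep1* -/-. *Neurog2* (ENSMUSG00000027967, chr3:127336054-127338549, plus strand), a proneural factor, had 10 and 4 reads. *Six3* (ENSMUSG00000038805, chr17:86012948-86031153, plus strand), a factor of the anterior neural plate and eye field, had 8 and 2 reads. *Hes5* (ENSMUSG00000048001, chr4:154335032-154336480, plus strand), a Notch target that holds back neurogenesis, had 2 and 2 reads. For each of these last 3 genes the reads of both libraries summed to under 20, so that a change in them was not detectable at this depth unless it was very large.

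In the WT library the order of levels was *Tubb3*, *Gbx2*, *Nes*, *Sox1*, *Pax6*, *Pax3*, *Neurog2*, *Six3* and *Hes5*. The 95% Poisson intervals cover counting error only and not the gene lengths used. They overlapped between *Sox1* and *Pax6* and between each neighbouring pair from *Pax3* down to *Hes5*, and did not overlap between the other neighbours. In the *Prep1* -/- library *Pax6* stood before *Sox1* and *Hes5* before *Neurog2* and *Six3*. There *Tubb3* and *Gbx2* overlapped, with intervals of 34.7 to 38.5 and 32.6 to 35.6 RPKM, and so did *Pax6* and *Sox1*. No gene crossed from one of the 3 level groups to another, as the plot of levels shows, although the groups were drawn from these same values.

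**Figure D1:**
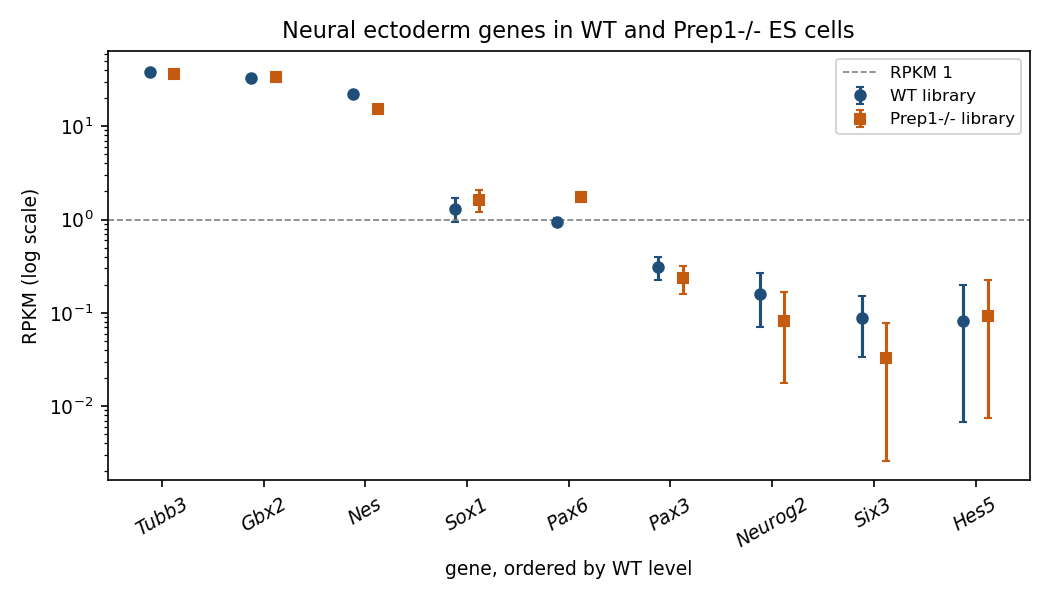
RPKM (log axis) of the 9 neural ectoderm genes in the WT library (circles) and the *Prep1* -/- library (squares), 1 library each, with 95% Poisson intervals of counting error; the dashed line marks 1 RPKM. *Tubb3*, *Gbx2* and *Nes* lie above 10 RPKM in both libraries, *Sox1* and *Pax6* near 1 RPKM, and the other 4 genes below 1 RPKM.

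The comparison of the libraries asks which genes differ between the WT line and the *Prep1* -/- line. A gene was counted as lower where its KO/WT ratio was below 0.7 and its WT level exceeded 1 RPKM, and as higher where the ratio was above 1.5 and the *Prep1* -/- level exceeded 1 RPKM. Of the 9 neural ectoderm genes, 5 had RPKM above 1 in either library, and of these 1 (*Nes*) was lower and 1 (*Pax6*) was higher. Over all 14254 genes with RPKM above 1 in either library, 13.3% were lower and 6.91% were higher. With 5 genes, 1 call in each direction is too few to set against these shares.

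*Pax6* had 358 reads in the WT library and 588 in the *Prep1* -/- library. Its KO/WT ratio was 1.83 (95% exact binomial interval 1.61 to 2.10, counting error only), and the whole interval lay above the threshold of 1.5. Relative to the median ratio of its own chromosome 2, 0.939, the ratio was 1.95. Its WT level was below 1 RPKM, so that with 1 RPKM added to both levels the ratio was 1.40, below the threshold. The last part of *Pax6* is overlapped on the opposite strand by *Elp4*, a gene of the Elongator complex, and whether reads in the overlap were told apart by strand was not tested. *Elp4* had 582 and 518 reads, a ratio of 0.995 (0.882 to 1.12), and *Immp1l*, the next gene downstream, had 18 reads in each library.

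*Nes* had 8200 reads in WT and 5018 in *Prep1* -/-. Its ratio was 0.684 (0.661 to 0.709), so that its interval lay wholly below 1 but included the threshold of 0.7. The call therefore depended on the scaling, since the ratio was 0.716 with the median ratio of expressed genes set to 1 and 0.721 relative to chromosome 3. Nestin is an intermediate filament, and among 7 related filament genes with a row none was counted as lower or higher. Of these, *Vim* (vimentin) had a ratio of 1.13 (75.2 and 84.9 RPKM in WT and *Prep1* -/-), *Ina* (internexin) 1.40 (30.2 and 42.3 RPKM), *Nefh* 1.37 and *Nefl* 0.752, the last 2 being neurofilament subunits. *Des* (desmin) had a ratio of 0.815, *Nefm* 1.01, and *Gfap*, the filament of astrocytes, had 39 reads in WT and 8 in *Prep1* -/-, a ratio of 0.252 (0.0926 to 0.498), and was not counted because its WT level was 0.544 RPKM. Nestin thus had a lower ratio than each of the filament genes with RPKM above 1.

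*Tubb3* had a ratio of 0.965 (0.898 to 1.04). It lies on chromosome 8, and relative to the median ratio of that chromosome its ratio was 1.24. Beta-tubulins share long stretches of sequence, so the assignment of reads among them is uncertain. *Tubb2b*, another beta-tubulin abundant in neurons, was higher, with 31.9 RPKM in WT and 55.0 RPKM in *Prep1* -/- (ratio 1.72, 1.55 to 1.91), and so was its neighbour in sequence *Tubb2a* (8.79 and 14.2 RPKM, ratio 1.61). The main beta-tubulin of the cells, *Tubb5*, had 1590 and 1499 RPKM, a ratio of 0.943. *Tubb6*, *Tubb4* and *Tubb2c* had ratios of 0.801, 0.752 and 1.10, and *Tubb1* had 7 reads in WT and 0 in the other library.

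*Gbx2* had a ratio of 1.05 (0.983 to 1.11), so that counting error left room for a change of no more than these bounds. Its relative *Gbx1* had 24 and 16 reads. *Sox1* had a ratio of 1.26 (0.837 to 1.90), an interval that spans both 1 and the threshold of 1.5. Relative to chromosome 8 its ratio was 1.61, which would pass that threshold. Its relative *Sox2* had a ratio of 1.32 (1.28 to 1.36) at a far higher level, *Sox3* 0.832 (210 and 156 reads) and *Sox21* 1.16 (194 and 201 reads). *Sox2* and *Sox3* are the other SoxB1 factors, and *Sox21* and *Sox14* (1 and 4 reads) are SoxB2 factors. The intervals of *Sox3* and *Sox21* included 1. The gene *EG434280*, annotated over *Sox1* on the same strand, had 6 reads in WT and 0 in *Prep1* -/-.

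For *Pax3* the ratio was 0.774 (0.484 to 1.20), for *Neurog2* 0.508 (0.102 to 1.55), for *Six3* 0.373 (0.0289 to 1.40) and for *Hes5* 1.12 (0.0810 to 15.4). All 4 intervals included 1, and those of *Neurog2* and *Hes5* included both thresholds as well. Their families were not uniform. *Neurog1*, the closest relative of *Neurog2*, was higher, with 30 reads (1.40 RPKM) in WT and 105 reads (5.34 RPKM) in *Prep1* -/-, a ratio of 3.82 (2.59 to 6.08), while *Neurog3* had 8 and 15 reads. Among the relatives of *Six3*, *Six5* was lower (ratio 0.631) and *Six4* had a ratio of 1.26. *Six2*, the next gene beyond *Six3*, had 47 and 17 reads (ratio 0.419, 0.218 to 0.718) with RPKM below 1 in both libraries, and *Six6* had 10 and 0 reads. *Six3os1*, an antisense transcript that overlaps *Six3*, had 8 reads in WT and 1 in the other library. Of the other Hes genes, *Hes1* had a ratio of 0.958, *Hes6* 0.861 and *Hes2* 0.774, and *Hes3* and *Hes7* had 9 reads each in WT against 7 and 9. Of the other Pax genes, *Pax1* had 44 and 18 reads, *Pax8* 74 and 84, *Pax9* 12 and 12, and *Pax2*, *Pax5* and *Pax7* at most 4 reads in any library.

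**Figure D2:**
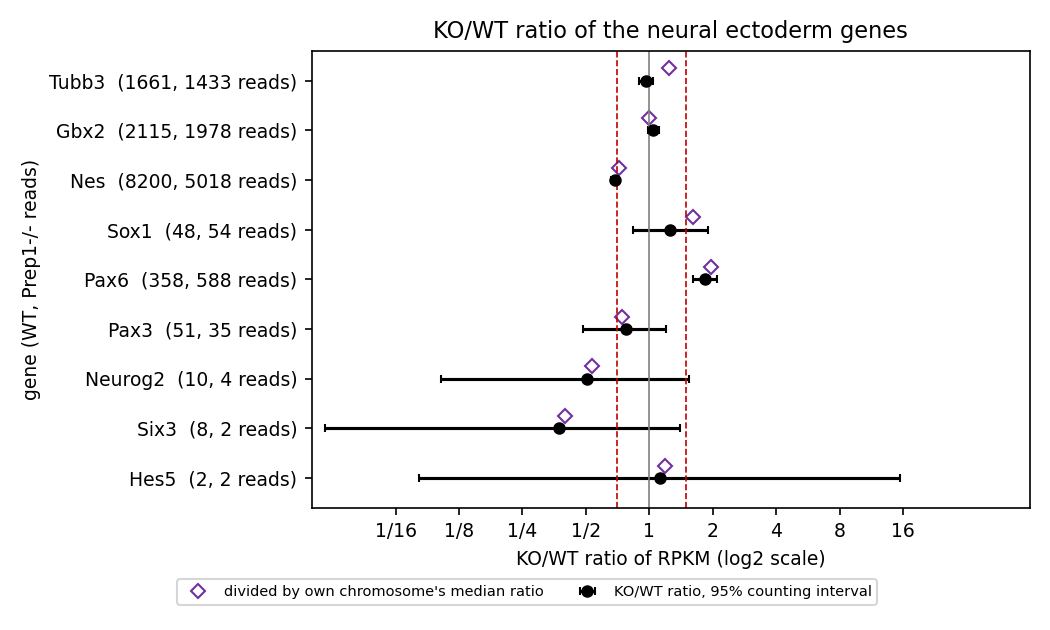
KO/WT ratio of RPKM (log2 axis) of each neural ectoderm gene, with its exact binomial 95% interval of counting error (black) and the same ratio divided by the median ratio of its chromosome (open diamonds, moved up for clarity); reads are given as WT, *Prep1* -/- and dashed lines mark 0.7 and 1.5. The intervals of *Nes* and *Pax6* exclude 1, those of the other 7 genes include it, and *Tubb3* and *Sox1*, both on chromosome 8, move furthest to the right.

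Of the 9 intervals, 1 lay wholly below 1, 1 wholly above and 7 included 1. Over the 20678 genes with at least 1 read in either library, 28.0% had an interval below 1 and 16.4% an interval above. With 0.1 RPKM added to each level, the median log2 KO/WT ratio of the 9 genes was -0.05, beside -0.02 over all genes with finite RPKM.

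A wider set of 81 neural genes in 4 lists, none of them among the 9, was described in the same way. Of the 78 with a row, 43 had RPKM above 1 in either library, and of these 9 (20.9%) were lower and 7 (16.3%) higher, beside the 13.3% and 6.91% of all genes. Their median log2 ratio was -0.08. Genes with 0 reads in a library enter these medians through the added 0.1 RPKM; with such genes set to the bound given by a floor of 3 reads, and left out where both libraries were at or under it, the medians were -0.08 over the 4 lists and 0.01, -0.26, 0.01 and -0.46 in the lists in the order given here. In the list of neural plate and progenitor genes, 15 of 18 had RPKM above 1 in either library, 1 was lower and 1 higher, and the median log2 ratio was -0.03. The lower gene was *Zfp521*, a zinc finger protein that promotes neural commitment of ES cells, with 184 and 90 reads (ratio 0.550, 0.420 to 0.708), followed by *Prom1* (0.803), which did not pass. The higher gene was *Ncam1*, a cell adhesion molecule of neurons, with 349 and 555 reads (ratio 1.78, 1.55 to 2.04).

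Of 25 genes for regional patterning of the neural plate, 7 had RPKM above 1 in either library, 2 were lower and 2 higher, and the median log2 ratio was -0.26. *Irx3*, a factor of the more posterior plate, was lower, with 141 and 57 reads (ratio 0.457, 0.326 to 0.619). It lies on chromosome 8, and relative to the median ratio of that chromosome its ratio was 0.586. Both higher genes belong to the anterior plate and are also expressed before neural fate is set. *Otx2*, which opposes *Gbx2* at the border of midbrain and hindbrain, had 220 and 434 reads (ratio 2.20, 1.87 to 2.61), and *Hesx1* 67 and 154 reads (2.55, 1.92 to 3.48).

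Among 22 proneural and neuronal genes with a row, 13 had RPKM above 1 in either library, 1 was lower and 3 were higher, and the median log2 ratio was 0.03. *Syp* (synaptophysin, a protein of synaptic vesicles) was lower, with 1095 and 491 reads (ratio 0.502, 0.450 to 0.558), and *Nefl* had the next ratio, 0.752. Higher were *Neurog1*, *Tubb2b* and *Mapt*, the microtubule protein tau, which had 1021 and 1983 reads (ratio 2.17, 2.01 to 2.34). Beside them *Tubb3* had an interval of 0.898 to 1.04, and its ratio relative to the median of chromosome 8 was 1.24. Which cells of the cultures these reads came from was not tested.

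Among 13 genes of the neural plate border and neural crest with a row, the list nearest to *Pax3*, 8 had RPKM above 1 in either library, 5 were lower and 1 higher, and the median log2 ratio was -0.46. The lowest ratios were those of *Msx1* (94 and 9 reads, ratio 0.118, 0.0475 to 0.212) and *Msx2* (389 and 141 reads, 0.407, 0.332 to 0.493), and *Dlx3*, *Twist1* and *Sox10* were also lower. *Msx1*, *Msx2* and *Twist1* are expressed in mesoderm as well, and *Dlx3* in trophoblast. *Foxd3*, which is used by neural crest and by pluripotent cells alike, was higher (412 and 718 reads, ratio 1.95, 1.72 to 2.20). The plot of the lists shows this one lying lowest, beside the 9 genes spread about 0.

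**Figure D3:**
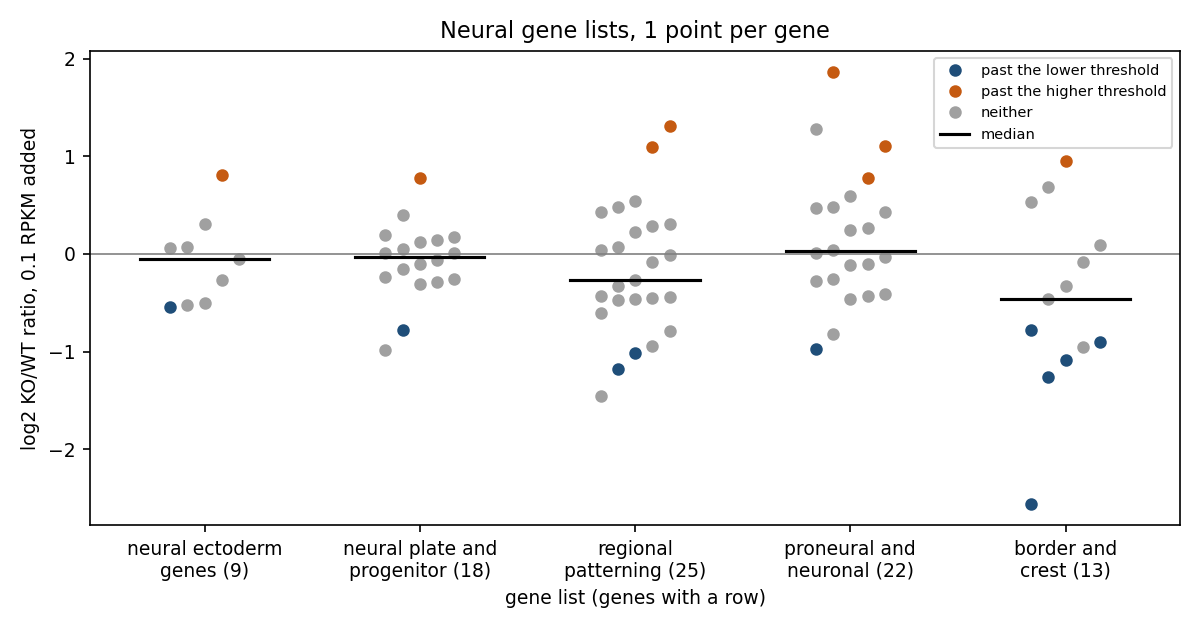
Log2 KO/WT ratio, with 0.1 RPKM added to both levels, of the 9 neural ectoderm genes and of the genes of 4 wider neural lists; each point is 1 gene, colour marks the thresholds and bars are medians. The medians are -0.05, -0.03, -0.26, 0.03 and -0.46 from left to right.

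Markers of other cell types moved in the same comparison. Of 8 mesoderm markers 6 had RPKM above 1 in either library and 5 were lower (*T*, *Mixl1*, *Eomes*, *Hand1* and *Kdr*), beside the 13.3% of all such genes, and their summed level went from 44.8 to 16.4 RPKM. Of 7 trophectoderm markers 6 had RPKM above 1 in either library and 5 were lower (*Krt8*, *Krt18*, *Cdx2*, *Gcm1* and *Hand1*). Their summed level was 805 and 484 RPKM in WT and *Prep1* -/-. Of 8 endoderm markers 5 had RPKM above 1 in either library and 3 were lower (*Gata4*, *Gata6* and *Dab2*). The other expressed endoderm markers, *Sox7* (ratio 1.39, 1.09 to 1.79) and *Lama1* (1.12, 1.05 to 1.20), had intervals wholly above 1. The summed level of the 8 endoderm markers had a KO/WT ratio of 0.835. *Krt14* was lower among 5 surface ectoderm markers with a row, of which 2 had RPKM above 1 in either library. Of 6 markers of fibroblast feeders 3 had RPKM above 1 in either library and none was counted as lower or higher (summed 23.8 and 29.6 RPKM), although all 6 ratios were above 1. Among them *Col1a1* had a ratio of 1.36 (1.25 to 1.48), and *Postn*, below 1 RPKM in both libraries, had 6 and 33 reads, a ratio of 5.43 (2.54 to 17.95). Among ES cell markers *Klf4* was higher, with a summed level of 1991 and 2284 RPKM for the 10 markers, of which *Utf1* had 767 and 794 RPKM. The ratio was above 1 for 8 of them and below 1 for 2, *Zfp42* (0.801, 0.68 to 0.93) and *Fbxo15* (0.837, 0.76 to 0.92). *Zfp42* lies on chromosome 8, and relative to the median of that chromosome its ratio was 1.03. In 5 markers of primed epiblast *Krt18* was lower and *Otx2* higher. In bulk RNA, fewer cells of a type and less RNA per cell cannot be told apart, and the part of such cells in the ratios of *Nes*, *Msx1* or *Msx2* was not tested.

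Prep1 peaks were then placed around the genes, since the study mapped binding to find genes that Prep1 may act on. The deposited list held 3902 peaks, each with the enrichment over input given by the peak caller as a rounded fold (median 21, range 4 to 336). A peak lay in the gene body or within 20 kb of the gene start of 2 of the 9 genes (22.2%), *Six3* and *Pax6*, beside 21.0% of all 21447 genes that could be placed and 26.1% of those with RPKM above 1 in either library. Both peaks had folds in the lower part of the list, 12 and 13, and no peak above the median fold was in reach of any of the 9 genes. *Pax6*, which was higher, thus had a peak, while *Nes*, which was lower, had none within 170.6 kb of its start.

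The *Pax6* peak (chr2:105531388-105531811, mm9, 424 bp, fold 13) lies inside the gene, 22.3 kb downstream of the first gene start and 829 bp from the nearest annotated transcript start. It covers the border of an intron and an exon that begins at position 105531722, and lies wholly within a longer exon (105529612 to 105531880) of another annotated *Pax6* transcript. No copy of the Prep1 decamer was found in it in either of the forms searched here. These exact forms occur in 24.3% (stricter) and 35.3% (looser) of all peaks. The study's motif search found its decamer in a larger share of the peaks, so a site of that kind may be missed here. The next peak was 157.3 kb upstream (fold 48).

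The *Six3* peak (chr17:86019768-86020510, 743 bp, fold 12) begins 6.8 kb downstream of the outermost gene start and covers 2 further annotated transcript starts, at positions 86020183 and 86020371. Both *Six3* and *Six3os1* were nearly silent in both libraries. The peak holds 2 copies of the looser decamer form (TGANTG followed by NCAG) on the plus strand and 9 bases apart, with first bases at -152 and -133 relative to the RefSeq start of *Six3*. The letters ATTGG inside each copy are also the reverse complement of a CCAAT box. The window around them is printed because it carries the only such elements found in the RefSeq promoters of these genes. It is reference sequence outside annotated exons (chr17:86019962-86020110, plus strand, capitals mark the decamers).
Six3 peak window: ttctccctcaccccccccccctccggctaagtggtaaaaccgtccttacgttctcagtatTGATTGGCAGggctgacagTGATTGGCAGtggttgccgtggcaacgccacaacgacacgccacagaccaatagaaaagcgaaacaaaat

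In RefSeq promoter sequences, from 250 bases before to 50 bases after each start and searched on both strands, 8 of the 9 genes had an entry, 9 promoters in all because *Pax6* has 2. *Pax3* had none. The stricter decamer (TGANTG followed by ACAG), a subset of the looser form, occurred in 0 of these 9 promoters, beside 0.874% of all 32851 promoters and 24.3% of the Prep1 peaks. The looser form occurred in the *Six3* promoter only, beside 2.29% of all promoters and 35.3% of the peaks. A pair of looser copies, as in *Six3*, was present in 17 of all promoters (0.0517%) and in 3.51% of the peaks. A match describes letters and does not show binding.

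Widened to 1000 bases before and 200 bases after the gene start in mm9, the search found the stricter decamer at 1 of the 9 genes, *Neurog2*, 88 bases after its start, beside 2.34% of all genes. The nearest Prep1 peak was 147.0 kb from it. For *Six3* this window lies at the outermost start and so does not reach the pair described above. The match at *Neurog2* and those in peaks within 100 kb of *Tubb3*, *Six3* and *Gbx2* are printed because they are the stricter decamers found at these genes (10 bases on each side, decamer in capitals).
Neurog2, after the gene start, chr3:127336142-127336151: ggccagggacTGACTGACAGacaaccacgc
Tubb3, peak over Tcf25, chr8:125898218-125898227: gacaaggggcTGAGTGACAGgactttgctg
Six3, peak over Six2, chr17:86087751-86087760, minus strand: gggttaccggTGACTGACAGcgtctccatg
Gbx2, peak over Agap1, chr1:91767506-91767515: aatggagctgTGATTGACAGctcttctcat

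Within 100 kb of the start or in the gene body, 5 of the 9 genes had a peak (55.6%). The share was 46.1% of all placed genes and 53.0% of those with RPKM above 1 in either library. *Tubb3* had a peak 36.7 kb upstream (fold 16) over *Tcf25*. *Gbx2* had a peak 42.9 kb upstream (fold 30) over *Asb18*, a gene with 2 reads in WT and 0 in *Prep1* -/-. Its other peak lay 62.0 kb downstream (fold 25) over *Agap1*, and only that peak held a decamer in the forms searched. *Hes5* had peaks 52.1 kb (fold 12) and 55.7 kb (fold 85) upstream, both without a decamer in the forms searched. *Six3* had a further peak at 74.4 kb, over *Six2*, which with a fold of 118 was the strongest peak within 100 kb of any of the 9 genes. The nearest peaks of *Neurog2*, *Nes*, *Pax3* and *Sox1* were 147.0, 170.6, 170.8 and 267.4 kb away. The median distance to the nearest peak was 52.1 kb over the 9 genes, beside 120.9 kb over all placed genes. It was not computed for expressed genes alone, among which peaks are more frequent.

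**Figure D4:**
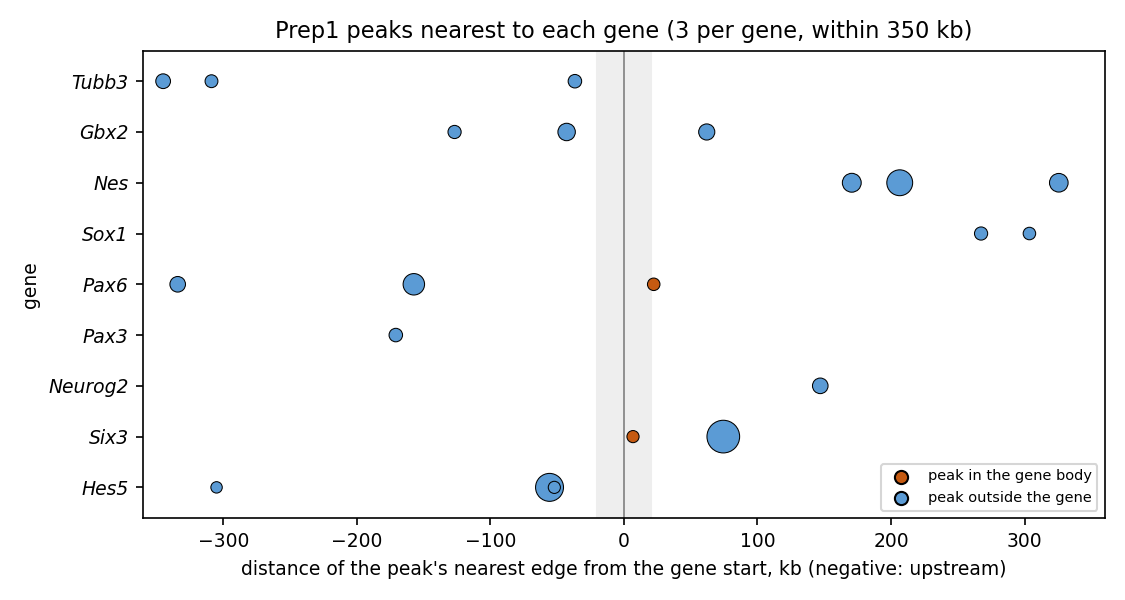
Distance in kb of the 3 nearest Prep1 peaks, where within 350 kb, from the start of each neural ectoderm gene (negative is upstream); the area of a point grows with the fold, and the shaded band marks 20 kb to either side. Only *Pax6* and *Six3* have a peak in the gene body, and the strongest peak within 100 kb is the one at 74.4 kb from *Six3*.

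In the wider lists, 20 of 78 genes (25.6%) had a peak in the gene body or within 20 kb, with 38.9% of neural plate and progenitor genes and 7.69% (1 of 13) of border and crest genes at the extremes. Of the 7 genes that were higher, 5 had a peak (*Ncam1*, *Otx2*, *Mapt*, *Neurog1* and *Tubb2b*), and of the 9 that were lower, 4 had one, among them *Irx3*, *Syp* and *Dlx3*. Over all genes past the thresholds a peak was present at 18.7% of the higher and 31.6% of the lower genes. These counts are small and were not tested.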

How the data were processed

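RNA-seq of 2 mouse ES cell libraries and 1 Prep1 ChIP-seq peak list were used. The authors purified polyadenylated RNA (TruSeq), read both ends of the fragments (50 bp) and used RSEM on Ensembl release 63 genes (mm9), followed by DESeq. Versions are not given in the sources used here. The authors deposited whole read counts and RPKM values per gene. The RPKM was made from the count plus 1, and it was listed as Inf for 85 genes, which were left out of the ratios and threshold counts. The authors mapped ChIP reads of 36 bp with BWA and called peaks against input with MACS at p below 1e-06. The score deposited with each peak is a rounded fold enrichment.

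Ratios were RPKM KO/WT without a pseudocount. Their 95% intervals were exact Clopper-Pearson intervals of the reads, times the scaling of 1.12 between the libraries, and cover counting error only. Scripts (Python 3.11.15, scipy 1.17.1, pysam 0.24.0) were tested on simulated data. The genes and lists were chosen with earlier results of these data known. Genes named beside the 9 were relatives by family, neighbours, the 2 lowest and 2 highest ratios of each wider list among its expressed genes (over 1 RPKM in either library, at least 20 reads), and markers past a threshold; *Tubb2b*, *Dlx3*, *Twist1* and *Sox10* were named with their counts. *Col1a1*, *Postn*, *Utf1*, *Zfp42*, *Fbxo15*, *Sox7* and *Lama1* were named after their values were seen. Some genes that this rule names are not reported here. Gene positions come from GENCODE M1 and, for *Sox1*, from an exact match of its RefSeq promoter at chr8:12395519. Promoters are from RefSeq (GRCm38.p6). *Map2*, *Rbfox3* and *Tfap2a* of the wider lists had no row under these symbols.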

Additional observations from a re-analysis of the deposited data

How the results depend on the processing

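No paired analysis was possible because there is 1 library per genotype, and no replicate could be left out. Of the 9 genes, the count of lower genes was 0 instead of 1 with scaling by summed read counts, with the median ratio of expressed genes or of the own chromosome set to 1, and with thresholds of 2/3 and 1.5 or 0.5 and 2, and it was 3 (*Nes*, *Neurog2* and *Six3*) without an RPKM filter. The count of higher genes was 0 instead of 1 with 1 RPKM added, with an RPKM above 2 and with thresholds of 0.5 and 2, and it was 2 (*Pax6* and *Sox1*) with the chromosome median set to 1. The ratio of *Tubb3* crossed 1 under 2 of 5 scalings or pseudocounts, and those of the other 8 genes under none of the 5. Of the wider lists, 23 genes were lower and 15 higher without a filter, 4 lower with an RPKM above 2, and 5 lower and 4 higher with thresholds of 0.5 and 2. A peak was near 5 genes within 100 kb and near 0 when peaks at or below the median score were left out. The decamer was in 1 promoter with the looser form and in 1 with the wider window, and the octamer TGATT followed by NAT, added after the data were seen, was in 0. The median log2 ratio of the 9 genes lay between -0.05 and 0.01 and turned positive with the median ratio of expressed genes or of the own chromosome set to 1, and that of the wider lists was negative under all 5 alternatives run. Depth limits *Neurog2*, *Six3* and *Hes5*, whose intervals allow both a loss and a gain.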
